A study of Homo sapiens with 8 samples.

Results

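The 10 genes described here, ATF4, DDIT3, ATF3, TRIB3, CHAC1, NUPR1, DDIT4, SESN2, PPP1R15A and STC2, form a core of the ATF4 and CHOP stress response. They were taken by symbol from tables of 26485 genes, and all 10 were present and reached the level tested, a mean of at least 1 FPKM (a level per transcript length and per sequenced fragment). The genes were named with earlier results of these libraries in view, including the differences between siRNAs and between HDM and PBS. Their levels and fold changes are therefore a description, and no p-value is given for them.

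The RNA came from BEAS-2B cells, a single virus-immortalised line of human bronchial epithelium. Cells carried LY96 siRNA or control siRNA, were changed to BEBM medium, received house dust mite (HDM) extract or PBS after 24 h, and were lysed 24 h after stimulation. The 4 groups were LY96 siRNA with HDM (3 libraries), control siRNA with HDM (3 libraries), LY96 siRNA with PBS (1 library) and control siRNA with PBS (1 library). Whether the 3 libraries of an HDM group came from separate cultures is not stated, so p-values reflect library-to-library scatter that could be purely technical, and each PBS level has no replicate.

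ATF4 is the main transcriptional effector of the integrated stress response. Kinases that sense misfolded protein, lack of amino acids, lack of haem or double-stranded RNA phosphorylate the initiation factor eIF2, which slows most translation but favours that of ATF4 mRNA. ATF4 then induces genes of amino acid supply together with further regulators, among them DDIT3, which encodes the factor CHOP, and PPP1R15A, whose product GADD34 brings a phosphatase to eIF2 and so closes the loop. In airway epithelium the pathway is known as a response to viral infection, oxidants and secretory load.

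LY96, the siRNA target, which encodes the lipopolysaccharide-binding protein MD-2, was listed at 0 FPKM in all 8 libraries, so its depletion could not be checked and the siRNA groups are named by their labels. Library totals lay between 329777 and 340328 FPKM, and read depth is unknown. All 6 bronchial epithelial markers reached 1 FPKM, summing to 932 to 968 FPKM with LY96 siRNA and HDM, and 977 to 1005 FPKM with control siRNA and HDM. None of 4 leukocyte, 3 endothelial and 3 fibroblast markers reached 1 FPKM in any library, and PTPRC, CD3E, PECAM1, DCN and LUM were listed at 0 in every library. With LY96 siRNA and HDM, ribosomal RNA made up 1.03%, 1.03% and 1.31% of the FPKM total, against 0.824%, 0.475% and 0.565% with control siRNA and HDM. Under PBS its share was 0.826% with LY96 siRNA and 0.770% with control siRNA. Under HDM the share separated the siRNA groups without overlap, as did all 10 genes, and its part in the differences below was not tested.

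For all 10 genes, the lowest LY96 siRNA HDM library exceeded the highest control siRNA HDM library, a pattern found in 15.2% of the 12598 genes tested. The ratio of mean FPKM, LY96 siRNA with HDM over control siRNA with HDM, ran from 1.25 for PPP1R15A to 8.50 for CHAC1, and 7 of the 10 genes reached 2. In limma's fit across all genes on log2(FPKM + 1), all 10 were called higher at a Benjamini-Hochberg adjusted p below 0.05, against 6.68% of all genes called higher and 8.92% called lower. Because these genes had been chosen with this difference known, nothing is read from that count. The median difference of the 10 was log2 1.19, beside -0.02 over all genes tested. In RNA from whole cultures, more of these transcripts per cell and more cells holding them cannot be told apart.

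The transcription factors differed in level more than in fold. ATF4 was by far the most abundant of the 10, at 258, 282 and 254 FPKM with LY96 siRNA and HDM, 145, 139 and 132 FPKM with control siRNA and HDM, 135 FPKM with LY96 siRNA and PBS, and 123 FPKM with control siRNA and PBS. The 3 LY96 siRNA HDM libraries thus stood apart from the other 5, which lay close together, and the siRNA difference under HDM was log2 0.93 ± 0.05 SE. DDIT3, which encodes CHOP, a factor linked to stress-induced cell death, was at 21.7, 24.2 and 19.6 FPKM with LY96 siRNA and HDM, 8.74, 9.43 and 9.91 FPKM with control siRNA and HDM, 6.97 FPKM with LY96 siRNA and PBS, and 8.51 FPKM with control siRNA and PBS. Its LY96 siRNA PBS library was the lowest of all 8, while its LY96 siRNA HDM libraries were the highest (log2 1.14 ± 0.07 SE for the siRNA difference under HDM). DDIT3 overlaps MARS and MBD6 on the opposite strand, and AC022506.1 and MIR616 on its own strand, in GENCODE v29. Whether reads were counted by strand is not given in the sources used here, and strand would not separate genes of the same strand, so its values are uncertain. MARS was at 56.9 ± 4.15 FPKM with LY96 siRNA and HDM and 37.9 ± 1.20 FPKM with control siRNA and HDM (SD, n = 3 each), so the gene on the other strand was higher in the same libraries.

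ATF3, a stress-induced factor of the same bZIP class, was the least abundant of the 10 with LY96 siRNA and HDM. It was at 5.26, 5.47 and 4.36 FPKM with LY96 siRNA and HDM, 3.18, 2.65 and 2.43 FPKM with control siRNA and HDM, 2.71 FPKM with LY96 siRNA and PBS, and 2.22 FPKM with control siRNA and PBS. The HDM groups did not overlap, but the LY96 siRNA PBS library lay within the range of the control siRNA HDM libraries (log2 0.68 ± 0.10 SE between siRNAs under HDM). NUPR1, a small chromatin-associated stress protein, was at 34.3, 42.7 and 29.2 FPKM with LY96 siRNA and HDM, 13.3, 12.99 and 12.1 FPKM with control siRNA and HDM, 20.9 FPKM with LY96 siRNA and PBS, and 15.8 FPKM with control siRNA and PBS. NUPR1 had another order than ATF4, with both PBS libraries above every control siRNA HDM library. Its siRNA difference under HDM was log2 1.39 ± 0.13 SE.

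**Figure D1:**
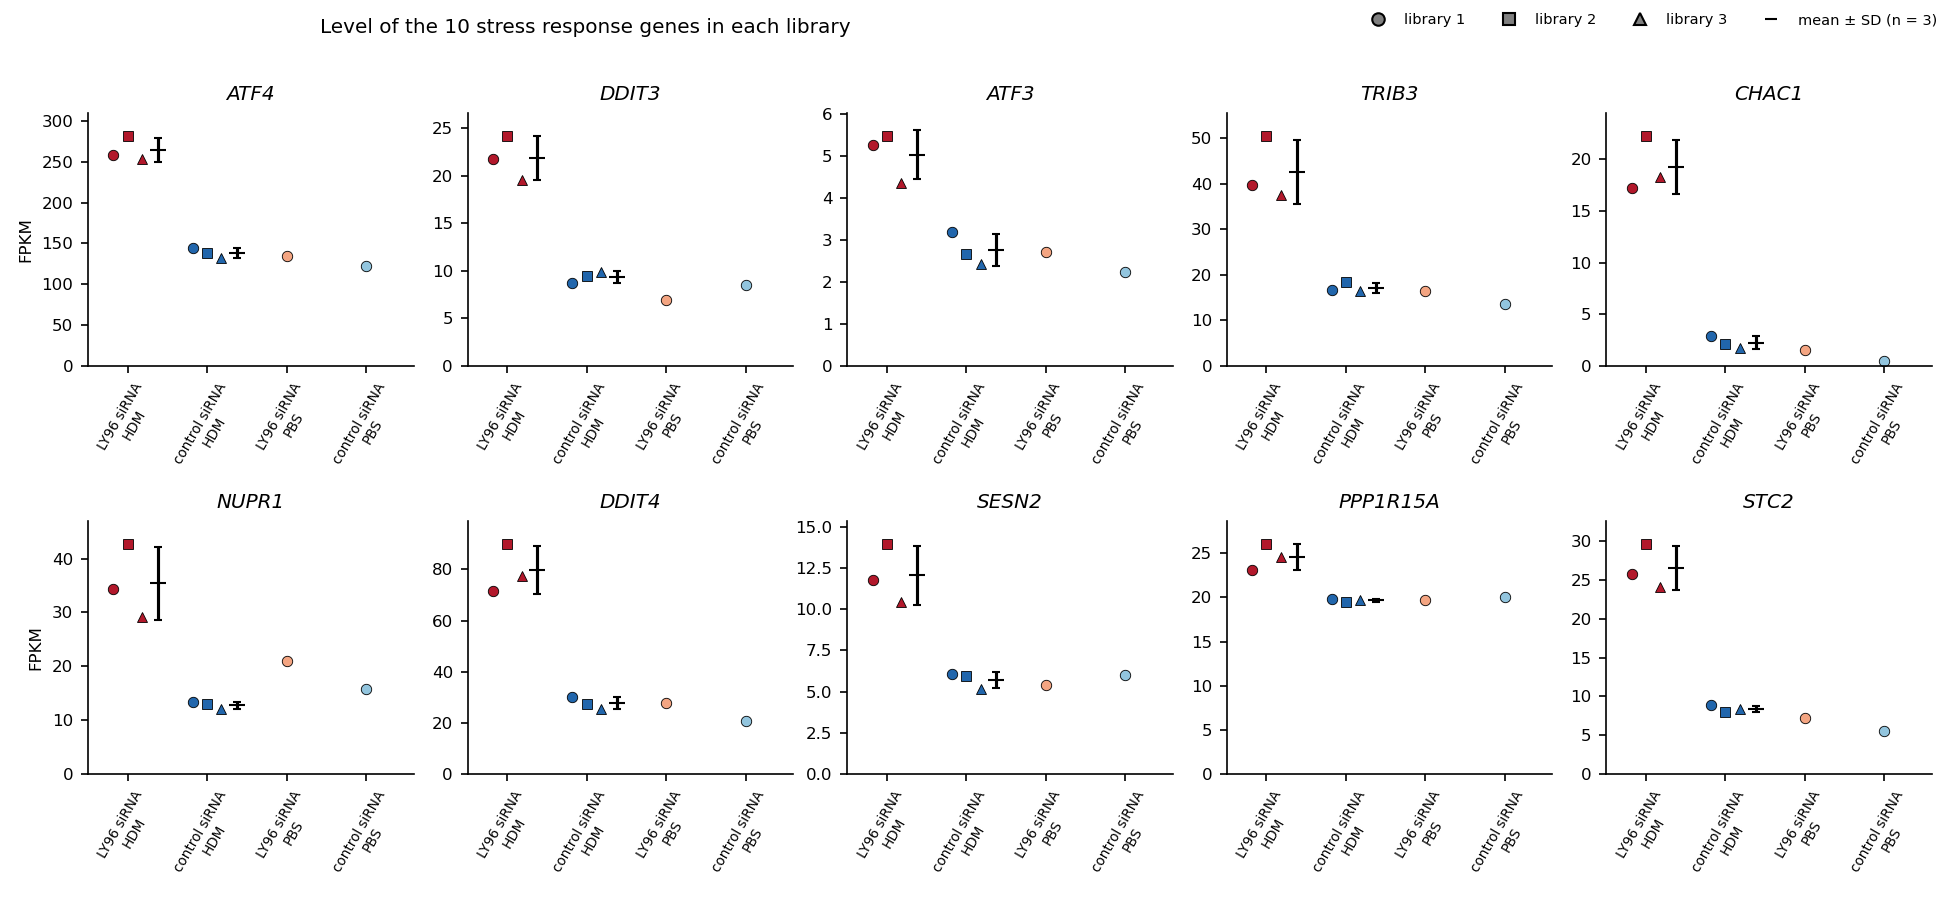
FPKM of each of the 10 genes in every library (vertical axes start at 0). Points are libraries, with the mean and SD of the 3 HDM libraries beside them. The 3 LY96 siRNA HDM libraries are highest for every gene, and library 2 of that group is the highest of all for each of the 10.

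CHAC1, a glutathione-degrading enzyme and textbook target of ATF4, showed the widest range. It was at 17.2, 22.3 and 18.3 FPKM with LY96 siRNA and HDM, 2.93, 2.12 and 1.74 FPKM with control siRNA and HDM, 1.52 FPKM with LY96 siRNA and PBS, and 0.431 FPKM with control siRNA and PBS. All 4 groups were apart and in the same order as listed, and the siRNA difference under HDM was log2 2.64 ± 0.15 SE, the second highest among the 12598 genes tested. STC2, a secreted glycoprotein of the stress response, was at 25.8, 29.6 and 24.1 FPKM with LY96 siRNA and HDM, 8.82, 8.01 and 8.31 FPKM with control siRNA and HDM, 7.20 FPKM with LY96 siRNA and PBS, and 5.48 FPKM with control siRNA and PBS. STC2 kept the group order of CHAC1 with a smaller spread (log2 1.55 ± 0.07 SE between siRNAs under HDM). TRIB3, a pseudokinase that binds AKT and restrains ATF4 and CHOP, was at 39.7, 50.5 and 37.5 FPKM with LY96 siRNA and HDM, 16.8, 18.4 and 16.4 FPKM with control siRNA and HDM, 16.6 FPKM with LY96 siRNA and PBS, and 13.7 FPKM with control siRNA and PBS. Its LY96 siRNA PBS library lay within the control siRNA HDM range (log2 1.25 ± 0.11 SE between siRNAs under HDM).

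DDIT4 and SESN2 encode REDD1 and sestrin 2, inhibitors of the growth kinase complex mTORC1 that act through TSC2 and through the amino acid sensing GATOR complexes. DDIT4, second to ATF4 in level, was at 71.6, 89.9 and 77.4 FPKM with LY96 siRNA and HDM, 30.3, 27.5 and 25.4 FPKM with control siRNA and HDM, 27.8 FPKM with LY96 siRNA and PBS, and 20.8 FPKM with control siRNA and PBS. The HDM groups were far apart, and the LY96 siRNA PBS library lay among the control siRNA HDM libraries (log2 1.49 ± 0.10 SE between siRNAs under HDM). DDIT4 overlaps the antisense gene DDIT4-AS1 on the opposite strand in GENCODE v29, so the uncertainty of strand given for DDIT3 holds for DDIT4 as well. SESN2 was at 11.8, 13.95 and 10.4 FPKM with LY96 siRNA and HDM, 6.08, 5.92 and 5.18 FPKM with control siRNA and HDM, 5.43 FPKM with LY96 siRNA and PBS, and 6.02 FPKM with control siRNA and PBS. For SESN2 the 5 libraries other than LY96 siRNA with HDM overlapped (log2 0.95 ± 0.10 SE between siRNAs under HDM).

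PPP1R15A, which encodes GADD34, moved least. It was at 23.2, 26.1 and 24.6 FPKM with LY96 siRNA and HDM, 19.8, 19.5 and 19.7 FPKM with control siRNA and HDM, 19.7 FPKM with LY96 siRNA and PBS, and 20.1 FPKM with control siRNA and PBS. The HDM groups did not overlap, at log2 0.30 ± 0.05 SE, a difference exceeded by 419 of the genes tested. By level with LY96 siRNA and HDM the order was ATF4, DDIT4, TRIB3, NUPR1, STC2, PPP1R15A, DDIT3, CHAC1, SESN2 and ATF3. The ranges of TRIB3 and NUPR1 overlapped, as did those of NUPR1 and STC2, and of DDIT3 and CHAC1. The ranges of STC2, PPP1R15A and DDIT3 each overlapped the others. With control siRNA and HDM the order was ATF4, DDIT4, PPP1R15A, TRIB3, NUPR1, DDIT3, STC2, SESN2, ATF3 and CHAC1, and the ranges of DDIT3 and STC2 and of ATF3 and CHAC1 overlapped.

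The promoter windows are shown for the 3 genes in which a script found either of 2 motifs searched on both strands, TGATGNAA, the core of the C/EBP-ATF response element that ATF4 binds, and TGACGTCA, the cAMP response element bound by ATF and CREB factors. Each is a RefSeq window of 300 bases on GRCh38.p14, 250 before and 50 after an annotated start, written 5′ to 3′ on the gene's strand with the match in capitals. The windows lie at chr15:40953221-40953520 (CHAC1, plus strand), chr1:212565157-212565456 (ATF3, plus strand) and chr19:48872171-48872470 (PPP1R15A, plus strand).
CHAC1: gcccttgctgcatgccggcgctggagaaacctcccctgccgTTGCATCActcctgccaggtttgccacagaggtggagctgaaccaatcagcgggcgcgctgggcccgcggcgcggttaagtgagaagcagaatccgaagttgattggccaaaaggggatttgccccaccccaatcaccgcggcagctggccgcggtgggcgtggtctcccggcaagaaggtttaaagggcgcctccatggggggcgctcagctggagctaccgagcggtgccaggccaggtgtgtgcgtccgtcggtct
ATF3: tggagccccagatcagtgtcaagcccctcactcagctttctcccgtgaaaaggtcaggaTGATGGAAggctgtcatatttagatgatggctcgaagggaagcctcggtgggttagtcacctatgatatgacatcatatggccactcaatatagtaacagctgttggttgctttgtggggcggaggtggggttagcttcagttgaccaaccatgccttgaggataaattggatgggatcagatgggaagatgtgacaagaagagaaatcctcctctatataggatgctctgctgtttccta
PPP1R15A: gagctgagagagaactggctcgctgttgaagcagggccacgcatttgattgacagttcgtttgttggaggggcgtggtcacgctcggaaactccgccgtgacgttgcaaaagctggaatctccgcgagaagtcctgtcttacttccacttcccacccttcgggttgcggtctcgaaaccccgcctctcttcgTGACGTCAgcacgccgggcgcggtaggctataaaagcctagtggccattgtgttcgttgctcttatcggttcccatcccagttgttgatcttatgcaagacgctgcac
The CHAC1 match, TTGCATCA, reads as the motif on the other strand and begins 209 bases before the start. The ATF3 match begins 191 bases before the start of 1 of 2 annotated windows, and the PPP1R15A match is a palindrome that begins 58 bases before the start. TGATGNAA was found in 2 of the 9 genes with a window and in 4.46% of 27305 genes, and TGACGTCA in 1 of the 9 and in 2.25% of genes. No match overlapped another. The windows of the other 6 genes, DDIT3, TRIB3, DDIT4, SESN2, STC2 and ATF4, hold neither string of letters, and NUPR1 had no window.

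The 10 genes had also been chosen with the differences between HDM and PBS known, so the counts of calls here and for the interaction are a description, from which nothing is read. With LY96 siRNA, each HDM library lay above the PBS library for all 10 genes, as it did for 33.4% of 12604 genes tested. The fit over all 8 libraries called 9 of the 10 higher and 0 lower, beside 2.91% of all genes higher and 1.98% lower. The ratio of mean HDM to PBS level ran from 1.25 for PPP1R15A through 1.96 for ATF4, 2.87 for DDIT4, 3.13 for DDIT3 and 3.68 for STC2 to 12.7 for CHAC1. NUPR1 was the exception to the call, at log2 0.71 ± 0.19 SE, and was called without LY96 siRNA HDM library 2 (log2 0.57) or library 3 (0.84). The call of ATF3 (log2 0.70 ± 0.14 SE) was lost without LY96 siRNA HDM library 1 (0.67) or 2 (0.64). That of PPP1R15A (log2 0.30 ± 0.06 SE) was lost without LY96 siRNA HDM library 3 or without any single control siRNA HDM library, at log2 0.30 in each case. Both calls were also lost without the filter on low values, and that of PPP1R15A without trend and robust moderation of the variance.

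With control siRNA, the 3 HDM libraries lay above the PBS library for 7 of the 10 genes, beside 33.8% of all genes, and below it for NUPR1 and PPP1R15A, beside 29.2% of all genes. The fit called 2 of the 10 higher and 0 lower (4 and 0 at an unadjusted p below 0.05 in limma), beside 1.55% of all genes higher and 0.738% lower. These were CHAC1, whose mean HDM level was 5.26 times the PBS level (log2 1.17 ± 0.20 SE), and STC2, at 1.53 times (log2 0.53 ± 0.10 SE). CHAC1 lost the call without LY96 siRNA HDM library 3 (log2 1.17) or control siRNA HDM library 2 (1.20). STC2 lost it without LY96 siRNA HDM library 1 (0.53) or control siRNA HDM library 1 (0.50), 2 (0.56) or 3 (0.54). For the other 8 genes the difference lay between log2 -0.29 ± 0.19 SE (NUPR1) and 0.39 ± 0.13 SE (DDIT4), and ATF4 itself was at log2 0.17 ± 0.07 SE. With 1 PBS library per siRNA, the fit takes the spread of the PBS groups from the HDM libraries.

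**Figure D2:**
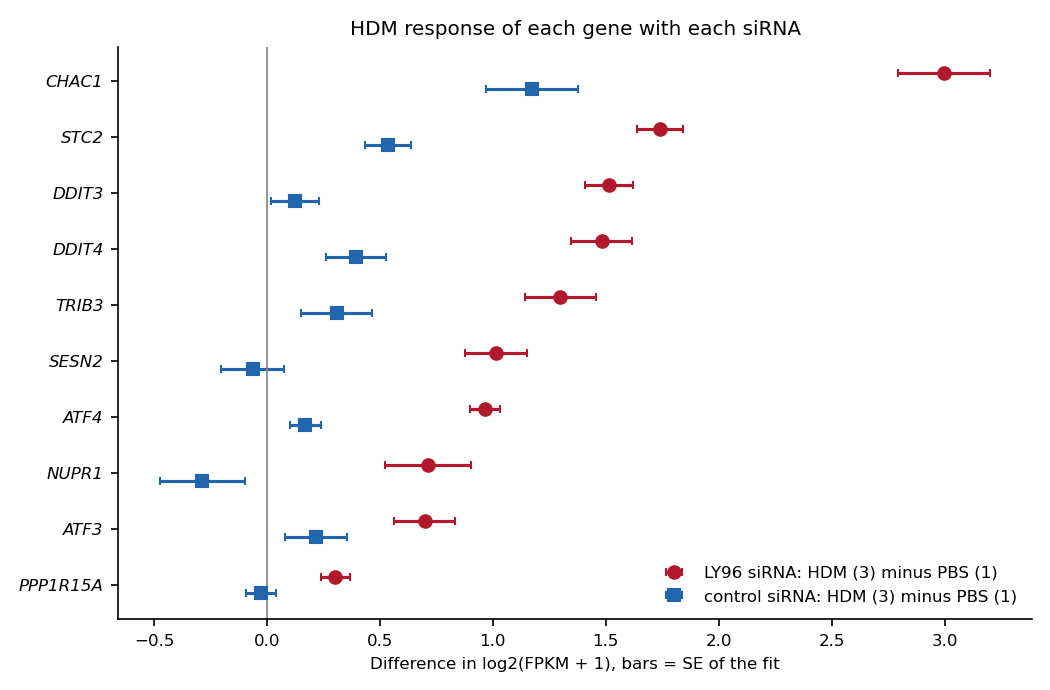
Difference in log2(FPKM + 1) between HDM and PBS for each gene, with LY96 siRNA (circles) and control siRNA (squares), bars showing the SE of the fit over 8 libraries. The LY96 siRNA response is the larger for all 10 genes, beside 6382 of the 12604 genes tested. It runs from 0.30 for PPP1R15A to 3.00 for CHAC1. The control siRNA response runs from -0.29 for NUPR1 to 1.17 for CHAC1, with a median of 0.19.

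The HDM response with LY96 siRNA exceeded that with control siRNA in all 10 genes, beside 6382 of the 12604 genes tested. The median gap was log2 1.04 beside 0.00 over all genes tested. As a description, the gap, fitted as an interaction, was called above 0 for 3 of the 10, beside 0.0555% of all genes above 0 and 0.0% below. These were DDIT3 (log2 1.39 ± 0.15 SE), STC2 (1.21 ± 0.14) and ATF4 (0.80 ± 0.09). CHAC1 had a larger gap with a larger error, log2 1.83 ± 0.29 SE, and was not called. The 3 calls rest on few libraries: none of the 10 was called without LY96 siRNA HDM library 1 or without any of the 3 control siRNA HDM libraries (9 or 10 of 10 at an unadjusted p below 0.05 in limma), 2 were called without LY96 siRNA HDM library 3, and 5 without library 2. The siRNA comparison under HDM shares its LY96 siRNA HDM libraries with one HDM comparison and its control siRNA HDM libraries with the other, and the interaction uses all 8 libraries, so these values are not independent of each other.

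Under PBS the siRNA groups could be compared only as single libraries. In a comparison of 1 library with 1 library and no test, 7 of the 10 genes were higher in the LY96 siRNA PBS library than in the control siRNA PBS library, beside 44.3% of all genes, and DDIT3, SESN2 and PPP1R15A were lower. On the log2(FPKM + 1) scale 0 of the 10 were at least 2-fold higher or lower, beside 0.167% of all genes higher and 0.238% lower. The middle 90% of all genes lay between log2 -0.31 and 0.26. Outside it lay CHAC1 (0.82), DDIT4 (0.40), NUPR1 (0.39) and STC2 (0.34), and ATF4 was at 0.13. CHAC1 was 3.53 times as high by FPKM, from levels of 1.52 and 0.431 FPKM in the LY96 and control siRNA PBS libraries, and passed 2-fold with a pseudocount of 0.1 or 0.5.

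The level of the other 9 genes was also taken relative to ATF4 in the same library. A difference in this ratio between groups restates a gene's fold against that of ATF4. The ratio was higher in every LY96 siRNA HDM library than in every control siRNA HDM library for 6 of the 9, lower for 1, and overlapped for ATF3 and SESN2. No such ratio was computed over all genes, and the members were chosen with the siRNA difference known. Nothing is therefore read from these counts. CHAC1 stood at 6.68%, 7.90% and 7.20% of the ATF4 level with LY96 siRNA and HDM, and at 2.02%, 1.53% and 1.32% with control siRNA and HDM. PPP1R15A went the other way, at 8.98%, 9.26% and 9.67% of ATF4 with LY96 siRNA and HDM and 13.7%, 14.1% and 14.9% with control siRNA and HDM. PPP1R15A itself was higher with LY96 siRNA and HDM than with control siRNA and HDM, at 1.25 times the mean FPKM. ATF4 was at 1.91 times, so the lower ratio of PPP1R15A restates the larger fold of ATF4. SESN2, at 4.56%, 4.96% and 4.11% with LY96 siRNA and HDM and 4.20%, 4.26% and 3.92% with control siRNA and HDM, kept nearly the same ratio.

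**Figure D3:**
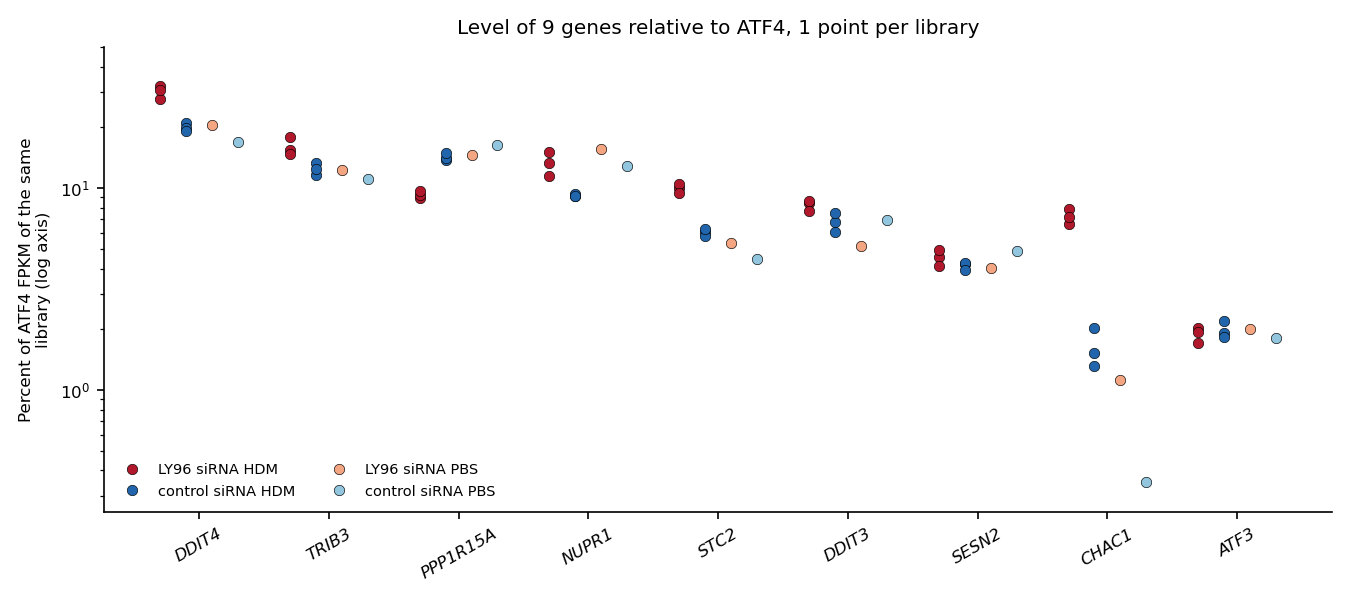
FPKM of 9 genes as a percent of ATF4 FPKM in the same library (log axis), 1 point per library, grouped by siRNA and stimulus. CHAC1 spreads the most, from 0.350% in the control siRNA PBS library to 7.90%, and PPP1R15A is lowest with LY96 siRNA and HDM.

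Within the LY96 siRNA HDM group the genes shared their highest library but not their lowest. Library 3 was lowest for 7 and library 1 for 3, beside 36.7% and 36.9% of all genes. Library 2 was the highest of the 3 for all 10 genes, whereas it was highest for 40.0% of the 12604 genes tested. Its levels exceeded the mean of libraries 1 and 3 by 9.27% for PPP1R15A to 34.6% for NUPR1, beside 2.14% for the library's FPKM total. The coefficient of variation in that group ran from 5.67% for ATF4 to 19.3% for NUPR1. Within the control siRNA HDM group library 1 was highest for 8 of the 10, beside 31.4% of all genes, and the coefficient of variation ran from 0.833% for PPP1R15A to 26.8% for CHAC1. Summed, the 10 genes held 508, 586 and 499 FPKM with LY96 siRNA and HDM, 255, 245 and 233 FPKM with control siRNA and HDM, 244 FPKM with LY96 siRNA and PBS, and 216 FPKM with control siRNA and PBS.

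Across the 8 libraries, each gene correlated with the mean of the other 9 at Pearson r = 0.910 for NUPR1 to 0.998 for ATF4, values that mainly reflect the 3 LY96 siRNA HDM libraries. The 5 other genes most like the mean of the 10, among 8888 with a mean of at least 5 FPKM, were GARS (r = 0.999), CARS (0.996), PSAT1 (0.996), YARS (0.995) and ASNS (0.995). Of these, GARS, CARS and YARS encode aminoacyl-tRNA synthetases, and PSAT1 and ASNS encode enzymes of serine and asparagine synthesis. GARS, which charges glycine tRNA, was at 51.4 ± 5.42 FPKM with LY96 siRNA and HDM and 27.4 ± 1.13 FPKM with control siRNA and HDM (SD, n = 3 each), and at 26.7 and 24.5 FPKM in the LY96 and control siRNA PBS libraries.

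Other reported targets of ATF4, genes of amino acid synthesis, amino acid transport, tRNA charging and secreted stress signals, followed the same groups. Of 29 listed, 27 reached the level tested (INHBE and FGF21 did not). This list and the lists below were drawn up with earlier results of these libraries known. From each, the 4 genes with the largest siRNA difference under HDM are named. Their counts and p-values are therefore a description and not independent tests. With LY96 siRNA under HDM, 24 rose and 0 fell against control siRNA under HDM (26 and 1 at an unadjusted p below 0.05), beside 6.68% and 8.92% of all genes, with a median of log2 0.62 beside -0.02 over all genes. PSAT1, of serine synthesis, rose by log2 1.95 ± 0.10 SE (adjusted p = 2.14e-04, limma), and ASNS, of asparagine synthesis, by 1.92 ± 0.13 (adjusted p = 8.30e-04, limma). SLC7A11, the cystine transporter subunit, rose by log2 1.81 ± 0.08 SE (adjusted p = 2.04e-05, limma), to 6.46 ± 0.690 FPKM against 1.12 ± 0.112 FPKM with control siRNA (SD, n = 3 each). ADM2, a secreted peptide of the calcitonin family, rose by log2 1.40 ± 0.11 SE (adjusted p = 2.14e-04, limma). The 3 not called were ATF5 (log2 -0.19), WARS (0.13) and CTH (0.30).

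HDM against PBS raised 25 of the 27 with LY96 siRNA, with a median of log2 0.68, and 0 of 27 with control siRNA in limma (7 higher and 1 lower at an unadjusted p below 0.05), with a median of 0.13. Over all genes the medians were 0.01 for both siRNAs, and 2.91% were called higher with LY96 siRNA and 1.55% with control siRNA. The interaction was called for 2 of the 27, SLC7A11 (log2 1.76 ± 0.17 SE, adjusted p = 0.0384, limma) and the mitochondrial folate enzyme gene MTHFD2 (1.01 ± 0.11, adjusted p = 0.0430, limma), which was singled out after its value was seen. SLC7A11 lost that call without LY96 siRNA HDM library 1 (log2 1.78) or control siRNA HDM library 1 (1.75), and MTHFD2 without LY96 siRNA HDM library 3 (1.03) or control siRNA HDM library 1 (1.02), 2 (1.03) or 3 (0.99).

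Of 18 listed genes of the ATF6 and IRE1 arms of the unfolded protein response 5 rose and 0 fell with LY96 siRNA under HDM against control siRNA under HDM (8 and 0 at an unadjusted p below 0.05), with a median of log2 0.06, beside the same shares of all genes. HERPUD1, of endoplasmic reticulum protein degradation, rose by log2 0.82 ± 0.04 SE (adjusted p = 3.21e-05, limma), to 30.5 ± 1.19 FPKM against 16.9 ± 0.696 FPKM (SD, n = 3 each). XBP1, the factor spliced by IRE1, rose by log2 0.67 ± 0.06 SE (adjusted p = 3.47e-04, limma). The chaperone genes HSPA5 (log2 0.23 ± 0.03 SE), HSP90B1 (0.13 ± 0.03) and CALR (0.11 ± 0.03) rose with adjusted p from 0.00269 to 0.0391 in limma. SEC24D, of vesicle coats, was not called (log2 0.15), but was without LY96 siRNA HDM library 2 (0.20). HDM against PBS raised 7 of the 18 with LY96 siRNA and 3 with control siRNA, beside 2.91% and 1.55% of all genes. The interaction was called for 0 of the 18 (2 higher and 0 lower at an unadjusted p below 0.05 in limma). Its median was log2 0.04, so the counts of 7 and 3 do not by themselves show a different HDM response. HSPA5 was also higher with HDM than with PBS under both siRNAs, by log2 0.30 ± 0.04 SE with LY96 siRNA and 0.29 ± 0.04 with control siRNA (adjusted p = 0.00493 and 0.0120, limma). The call with control siRNA was lost without trend and robust moderation of the variance (log2 0.29).

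The 4 eIF2 kinase genes EIF2AK1, EIF2AK2, EIF2AK3 and EIF2AK4 were not called in any of the 4 comparisons, and their siRNA differences under HDM lay between log2 -0.11 and 0.04. Of 13 listed genes that control eIF2 phosphorylation 1 rose and 1 fell with LY96 siRNA under HDM, shares near the 6.68% and 8.92% of all genes. The gene that rose was PPP1R15B, the constitutive counterpart of PPP1R15A (log2 0.21 ± 0.04 SE, adjusted p = 0.0120, limma). EIF2S1, the eIF2 subunit that is phosphorylated, fell by 0.16 on the log2 scale (adjusted p = 0.0208, limma), a call lost without any LY96 siRNA HDM library (log2 -0.16 each) or without control siRNA HDM library 2 (-0.13). OMA1 (log2 -0.12) and DNAJC3 (0.16), of mitochondrial stress signalling and kinase inhibition, were not called. DNAJC3 was called at a mean of at least 5 FPKM (log2 0.16), after median-ratio scaling (0.18) and after quantile normalization (0.17).

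Of 8 listed genes linked to CHOP in apoptosis and protein oxidation, 3 rose with LY96 siRNA under HDM and 2 fell, beside 6.68% and 8.92% of all genes. PMAIP1 and BBC3, which encode the cell death proteins NOXA and PUMA, rose by log2 0.90 ± 0.07 SE and 0.46 ± 0.05 (adjusted p = 2.09e-04 and 0.00108, limma). ERO1A, an oxidase of the endoplasmic reticulum, rose by log2 0.21 ± 0.05 SE (adjusted p = 0.0225, limma), a call lost with the sample number as a block (log2 0.21) and without LY96 siRNA HDM library 1 (0.21) or 3 (0.18) or control siRNA HDM library 3 (0.18). BCL2L11, which encodes the death protein BIM, fell by 0.32 and the death receptor gene TNFRSF10B by 0.15 on the log2 scale (adjusted p = 0.00625 and 0.0217, limma). Of 13 partners of SESN2, DDIT4 and TRIB3 in AKT and mTORC1 signalling 0 rose in limma (1 at an unadjusted p below 0.05) and 1 fell, TSC1 (log2 -0.26 ± 0.05 SE, adjusted p = 0.0140, limma), a share near that of all genes. The related sestrin genes SESN1 (log2 -0.17) and SESN3 (-0.20) lay on the other side of 0 from SESN2 and were not called, nor was NPRL2 (0.19), which was called without control siRNA HDM library 3 (0.25).

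**Figure D4:**
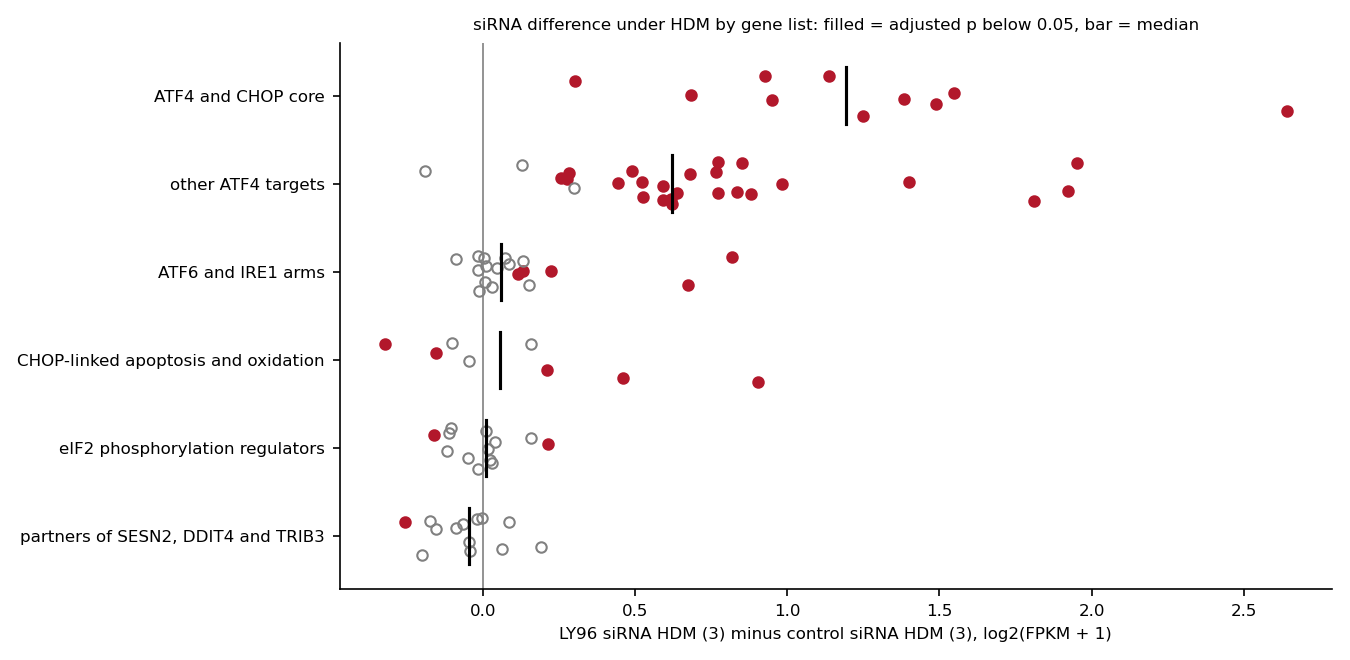
LY96 siRNA minus control siRNA under HDM, in log2(FPKM + 1), for each tested gene of 6 lists (points, 3 libraries a group; filled where the adjusted p was below 0.05; bar at the median). Medians lie at 1.19 for the ATF4 and CHOP core and 0.62 for other ATF4 targets, and between -0.04 and 0.06 for the other 4 lists.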

How the data were processed

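RNA of 8 BEAS-2B libraries was sequenced. Per the submitters' processing notes, HISAT2 2.2.0 and hg38 were used; what computed the values, and with which annotation, is not given in the sources used here. The authors deposited 1 table per library, read as FPKM because values are not whole, totals differ between libraries and no steps of whole reads were found at low values. Depth is thus unknown. An exact 0 can be a failed estimate. No 2 libraries were identical. Samples were grouped by title. The members, gene lists and tests were chosen with earlier results of these data known. Tests used limma 3.58.1 in R 4.3.3 on log2(FPKM + 1), which understates changes of low genes, with a trended, robust variance prior, on genes averaging at least 1 FPKM in the fitted libraries. The siRNA effect under HDM used 6 HDM libraries. HDM effects, and the interaction (LY96 siRNA response minus control siRNA response), came from a model of 4 group means over 8 libraries. P-values are two-sided, Benjamini-Hochberg adjusted over all genes tested, with a threshold of 0.05. The fits were tested on simulated data. Alternatives were other pseudocounts, filters, scalings and moderation, a replicate block and leaving out each HDM library. Named genes are the 10 members, the 4 genes of each other list with the largest siRNA difference under HDM, list genes needed by a count of 5 or fewer, and the 5 genes most like the members by Pearson correlation with their mean z-score. DELE1 and CASTOR1 were matched under their older symbols. Gene overlaps are those of GENCODE v29 on GRCh38.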

Additional observations from a re-analysis of the deposited data

Results flagged for a closer look

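In limma's interaction fit 3 of the 10 genes passed the threshold for a difference in HDM response between LY96 siRNA and control siRNA. These genes were chosen with these differences known, so this is a description and not a test. The response with LY96 siRNA was the larger by log2 0.80 for ATF4, 1.39 for DDIT3 and 1.21 for STC2. Among the other listed targets of ATF4, also listed with earlier results known, the same fit singled out SLC7A11, at log2 1.76, and MTHFD2, at log2 1.01. Each siRNA had 1 PBS library, and each of these 5 calls was lost in at least 1 fit that left out a single HDM library.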

How the results depend on the processing

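All 10 genes were called higher with LY96 siRNA under HDM under each of the 15 alternatives tried, except that ATF3 was not tested at a mean of at least 5 FPKM. The 10 genes were chosen with this comparison known, and the alternatives reuse the same libraries. Counts of their calls are thus a description and add no independent support. The all-gene calls behind that comparison numbered 1966, and 1119 to 1369 without single libraries. Median-ratio scaling turned 842 higher and 1124 lower genes into 1068 and 877, and quantile normalization into 991 and 957. For HDM with LY96 siRNA, 7 to 9 of the 10 were called under all 13 alternatives. For HDM with control siRNA, the 2 calls became 0 without the low-value filter and 0 without trend and robust moderation (3 at an unadjusted p below 0.05 in both), and 0 to 2 without single libraries; the 288 all-gene calls became 180 without moderation and 187 to 329 without single libraries. For the interaction, the 3 calls became 0 without the filter and 0 without moderation (9 and 10 at an unadjusted p below 0.05), and 0 to 5 without single libraries; the 7 all-gene calls became 20 without the filter, 15 at a mean of at least 5 FPKM, 11 after quantile normalization, 0 without moderation and 0 to 33 without single libraries. The cause was not tested. Under PBS, 1 of the 10 (CHAC1) passed 2-fold with a pseudocount of 0.1 and 1 with 0.5, settings chosen after seeing the data. No value changed sign. Deviations of same-numbered HDM libraries from their group means correlated at r = 0.05, -0.02 and -0.02. Those of differently numbered HDM libraries lay between r = -0.03 and 0.04. With all values near 0 and 3 libraries a group, what a shared number stands for cannot be told. With the sample number as a replicate block, 10 of the 10 genes were called and 1635 genes in all. PBS libraries carry no number and are single, so neither a block nor leaving one out could be run for HDM effects. Read depth is unknown, so no limit from counting can be given.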
